A study of Mus musculus with 6 samples.

Results

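The transcripts described here come from 10 genes that brown or white fat cells use: Ucp1, Cidea, Cidec, Plin1, Plin5, Adipoq, Fabp4, Pck1, Thrsp and Cfd. They are 10 of the 28795 genes in the deposited table, and they were picked by name because they were lower in bone marrow monocytes after 5 days with RANKL than at day 0. Their difference between the days is therefore a description and is given without a test. Of the 10, 8 had 0 to 7.25% of their day 0 level left at day 5, while Fabp4 kept 16.8% and Cfd 26.0%.

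Brown fat cells burn fatty acids to make heat, and white fat cells store them as triglyceride. Both kinds of cell hold the triglyceride in lipid droplets, whose surface proteins control the access of lipases, and both secrete hormones such as adiponectin. Bone marrow holds fat cells of its own, which share a mesenchymal origin with bone-forming cells and not with monocytes.

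Monocytes from mouse bone marrow, which can become macrophages or osteoclasts, were grown with M-CSF at 50 ng/ml, a cytokine they need to survive. RANKL, which drives their differentiation into osteoclasts, was given at 50 ng/ml, and poly(A) RNA was sequenced from 3 libraries at day 0 and 3 libraries at day 5. A day 5 group with M-CSF alone was not analysed here, so RANKL and time in culture cannot be told apart. The labels give no strain, genotype, age or number of mice, and they do not say whether replicate libraries are separate cultures, so the p-values cover only the spread among these 6 libraries. RANKL stands in the treatment label on both days, and grouping followed the time label.

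The libraries held 64616609 to 82721513 counts. Libraries of the same day correlated across genes at r of 0.996, and libraries of different days at 0.971 to 0.975. Counts of a gene related to 18S rRNA made up 4.09% of day 0 replicate 1 and 0.158% to 0.507% of each other library. The presence of the labelled cell type was checked on Csf1r, the M-CSF receptor of the monocyte lineage. Csf1r was abundant on both days at 2001 ± 123 and 1226 ± 122 CPM (CPM are counts scaled to a common library size with TMM factors, given here and below as mean ± SD, n = 3 per day). It does not give the share of other cells. The marrow stromal markers listed below summed to 17323 ± 2883 CPM at day 0 and 11038 ± 434 at day 5. The macrophage markers summed to 22631 ± 1733 and 8326 ± 757 CPM. Acp5, an acid phosphatase of osteoclasts, rose from 137 ± 31.1 to 7760 ± 456 CPM (edgeR quasi-likelihood test, adjusted p = 1.21e-08).

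The 250 bases upstream of the transcription start (as RefSeq places it) were taken for 8 of the 10 genes from RefSeq, build GRCm38.p6. They are printed 5′ to 3′ on the gene's strand for 4 genes, chosen as 1 gene each of heat production, glycerol synthesis, hormone secretion and fatty acid synthesis. Capitals mark matches on either strand to TATANA (the TATA box), to CCAAT (the CCAAT box), to ACGTCA (the core of the cAMP response element) or to AGGTCA (a nuclear receptor binding site), and where matches overlap the capitals run on. The windows are chr8:83290098-83290347 on the plus strand for Ucp1, chr2:173152823-173153072 on the plus strand for Pck1, chr16:23146286-23146535 on the plus strand for Adipoq and chr7:97417551-97417800 on the minus strand for Thrsp.
Ucp1: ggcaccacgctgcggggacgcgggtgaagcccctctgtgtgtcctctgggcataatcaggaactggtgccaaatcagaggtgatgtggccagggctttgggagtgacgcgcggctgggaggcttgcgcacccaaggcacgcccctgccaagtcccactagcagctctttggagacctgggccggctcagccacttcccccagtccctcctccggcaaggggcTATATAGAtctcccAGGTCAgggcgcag
Pck1: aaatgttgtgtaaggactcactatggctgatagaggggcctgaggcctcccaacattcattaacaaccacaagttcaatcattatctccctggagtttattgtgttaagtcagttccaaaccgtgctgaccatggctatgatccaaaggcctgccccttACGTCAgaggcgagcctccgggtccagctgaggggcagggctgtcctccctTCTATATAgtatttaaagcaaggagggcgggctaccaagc
Adipoq: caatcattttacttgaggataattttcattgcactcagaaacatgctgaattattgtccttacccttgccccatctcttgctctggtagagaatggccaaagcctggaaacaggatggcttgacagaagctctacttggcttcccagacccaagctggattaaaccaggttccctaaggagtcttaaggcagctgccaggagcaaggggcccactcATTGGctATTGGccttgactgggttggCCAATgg
Thrsp: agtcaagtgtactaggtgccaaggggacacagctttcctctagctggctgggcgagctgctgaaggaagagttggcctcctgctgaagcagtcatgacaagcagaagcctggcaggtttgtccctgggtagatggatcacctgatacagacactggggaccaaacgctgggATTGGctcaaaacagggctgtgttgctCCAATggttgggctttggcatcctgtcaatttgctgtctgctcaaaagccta

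TATANA was present in the windows of Ucp1 and Pck1 and in 22.6% of 32851 mouse promoter windows of the same length. CCAAT was present for Adipoq, Thrsp and Plin5 and in 33.8% of all windows. The Thrsp window, with its CCAAT matches, lies largely inside the gene coordinates given below, which begin upstream of the RefSeq start. The end of the Pck1 window also lies inside its gene coordinates. AGGTCA was found for Ucp1 and Plin5 (14.0% of all windows) and ACGTCA for Pck1 (6.47%). TTGCNNAA, the letters that C/EBP factors prefer, was found for Plin1 and for 1 of the Cidec windows (9.56% of all windows). None of the 5 motifs was present in the windows of all 8 genes, and none of them was present for Cfd. A match is only a match of letters.

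Ucp1 and Cidea are the members most closely tied to brown fat. Ucp1 encodes uncoupling protein 1, the mitochondrial protein that lets protons leak and so turns respiration into heat. The gene (ENSMUSG00000031710, chr8:83290352-83298452, plus strand, in coordinates that match build GRCm38) had 1065, 979 and 972 counts at day 0 and no count in any day 5 library. Its day 0 level was 14.1 ± 2.42 CPM. Against a floor of 3 counts over the 3 day 5 libraries, Ucp1 was at least 1021-fold lower at day 5. That bound would be smaller if the counts hold both mates of a read pair. The fitted log2 difference was -12.99, and -11.99 with halved counts. No count in any day 5 library with at least 100 counts at day 0 was found for 14 of the 21703 genes tested (0.0645%). In bulk libraries such as these, fewer cells of a type and less RNA per cell cannot be told apart.

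Cidea encodes a lipid droplet protein that helps droplets fuse and is abundant in brown fat. The gene (chr18:67343604-67367785, plus strand) had 596, 580 and 455 counts at day 0 and 5, 9 and 0 counts at day 5. The day 0 libraries were all far above the day 5 libraries, of which replicate 3 had no count. The mean went from 7.66 ± 1.91 to 0.0647 ± 0.0631 CPM, which is 118-fold lower and leaves 0.844% of the day 0 level. Without day 5 replicate 2 the fitted log2 difference was -7.74 instead of -6.86. Cidea is overlapped on the other strand by B430212C06Rik, but their exons do not overlap, and that gene had at most 7 counts in a library.

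Cidec, Plin1 and Plin5 encode proteins of the lipid droplet surface. Cidec, a relative of Cidea that promotes the growth of large droplets (chr6:113424634-113435760, minus strand), had 208, 151 and 190 counts at day 0 and 20, 0 and 8 at day 5. Its mean went from 2.56 ± 0.616 to 0.127 ± 0.137 CPM, 20.1-fold lower. Among the day 5 libraries replicate 1 held most of the counts, and without it the fitted log2 difference went from -4.30 to -5.50.

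Plin1, the perilipin that guards the droplets of fat cells against lipases (chr7:79720218-79732835, minus strand), had 190, 133 and 170 counts at day 0 and 8, 18 and 0 at day 5. It was 19.2-fold lower at day 5, with 2.31 ± 0.597 CPM at day 0. The days did not overlap, and leaving out day 5 replicate 2, the library with 18 counts, moved the log2 difference from -4.24 to -5.36. Plin5, the perilipin of cells that oxidise much fat (chr17:56111601-56117596, minus strand), was the lowest of the 10 genes, with 58, 32 and 71 counts at day 0 and 0, 4 and 0 at day 5. Its level went from 0.742 ± 0.258 to 0.0187 ± 0.0323 CPM, 39.8-fold lower. The 4 counts of day 5 replicate 2 were all that was seen at day 5, and without that library the log2 difference was -8.76 instead of -5.20, a value that depends on the prior count of the fit.

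Adipoq and Cfd encode secreted proteins. Adipoq encodes adiponectin, a hormone made by fat cells (chr16:23146536-23158028, plus strand). It had 229, 258 and 192 counts at day 0 and 18, 24 and 8 at day 5. Every day 5 library still held some counts, and the mean went from 3.18 ± 0.711 to 0.230 ± 0.114 CPM, 13.8-fold lower. Cfd encodes complement factor D, also called adipsin, a protease of the alternative complement pathway (chr10:79890853-79892655, plus strand). Cfd had 338, 160 and 222 counts at day 0 and 51, 108 and 33 at day 5. Its days came closest to each other: the lowest day 0 library had 160 counts and the highest day 5 library 108. The mean went from 3.42 ± 1.65 to 0.887 ± 0.555 CPM, 3.85-fold lower. The log2 difference of Cfd was -1.94, and it was -2.57 without day 5 replicate 2 and -1.48 without day 0 replicate 1.

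Fabp4, Pck1 and Thrsp act in fatty acid handling and synthesis. Fabp4 encodes a fatty acid binding protein of fat cells that macrophages also make (chr3:10204088-10208576, minus strand). It had the most counts of the 10 genes, 3121, 2882 and 3369 at day 0 and 631, 430 and 533 at day 5. Fabp4 was lower in every day 5 library but well detected in each, with 43.5 ± 4.81 CPM at day 0 and 7.31 ± 1.29 CPM at day 5, 5.94-fold lower.

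Pck1 encodes the cytosolic phosphoenolpyruvate carboxykinase, which fat cells use to make the glycerol backbone of triglyceride (chr2:173153048-173159273, plus strand). It had 1177, 959 and 1046 counts at day 0 and 24, 8 and 8 at day 5. The mean went from 14.9 ± 3.11 to 0.183 ± 0.125 CPM, and the fitted log2 difference went from -6.33 to -7.06 without day 5 replicate 1, the library with 24 counts. Pck1 was thus 81.3-fold lower, next to Cidea among the genes that still had counts. Thrsp encodes a thyroid hormone responsive protein that promotes fatty acid synthesis (chr7:97412938-97417730, minus strand). It had 334, 412 and 261 counts at day 0 and 10, 9 and 6 at day 5. The 3 day 5 libraries lay close together, and Thrsp was 41.1-fold lower, from 4.72 ± 1.34 to 0.115 ± 0.0286 CPM.

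**Figure D1:**
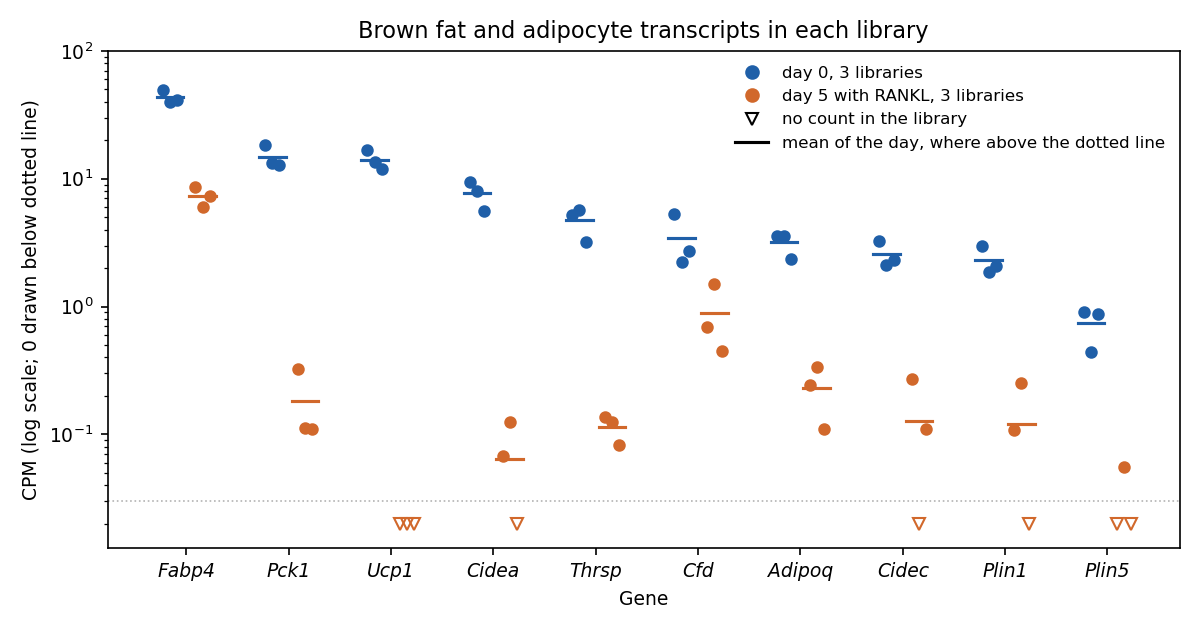
CPM on a log scale of each of the 10 genes in each library, with the mean of each day as a bar and libraries without a count drawn below the dotted line. For every gene the 3 day 0 libraries lie above the 3 day 5 libraries, with the smallest gap for Cfd, and Ucp1 has no count at day 5.

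For all 10 genes every day 0 library lay above every day 5 library, a pattern seen for 22.2% of all 21703 genes tested. A mean at day 5 under 10% of day 0 was seen for 2.42% of all genes and for 8 of the 10. The genes were chosen for this difference, so nothing is read from these counts. All 10 had at least 10 counts over the libraries, and 8 reached 1 FPKM (counts scaled for gene length and library depth) in 3 or more libraries. Plin1 and Plin5 did not reach that level.

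Per length, at day 0, Fabp4 had the highest level (9.21 ± 0.912 FPKM), followed by Ucp1 (8.19 ± 1.35) and Cidea (6.54 ± 1.62). Pck1 (4.12 ± 0.826 FPKM), Cfd (3.51 ± 1.67), Adipoq (2.19 ± 0.495), Thrsp (2.05 ± 0.588) and Cidec (1.30 ± 0.299) came next. Plin1 (0.463 ± 0.112 FPKM) and Plin5 (0.337 ± 0.118) were lowest. Neighbours in this order overlapped between libraries, except Cidec and Plin1. Ucp1 exceeded 78.9% of the genes detected at day 0 and Plin5 41.7%. The order depends on the lengths behind the deposited FPKM. For Fabp4 counts and FPKM imply a length of 4655 bases, while its protein-coding transcript in GENCODE M21 has 896, so its FPKM would be higher per base of that transcript. The implied lengths of Plin1, Pck1 and Thrsp were 4893, 3562 and 2275 bases. Their longest protein-coding transcripts have 2817, 2661 and 1277, so the same holds for these genes to a lesser degree.

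Among the day 0 libraries, replicate 1 had the highest CPM for 9 of the 10 genes and replicate 2 for Thrsp. Of 18602 other genes, 29.8% were highest in replicate 1. The 10 other brown and beige fat genes called lower, described below, were highest in replicate 1 for 4, replicate 2 for 5 and replicate 3 for 1. The 5 adipokine and adipocyte surface genes called lower were highest in replicate 1 for 3 and replicate 3 for 2. The lowest day 0 library was replicate 2 for 5 genes and replicate 3 for the other 5. Summed over the 10 genes the day 0 libraries had 115, 90.9 and 85.3 CPM and the day 5 libraries 10.4, 8.54 and 8.19 CPM. Replicate 1 is also the library with most rRNA-related counts, and the part of this in its higher levels was not tested. Without that library the median log2 difference of the 10 genes was -4.56, against -4.75 with it.

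What remained at day 5 was mostly Fabp4 and Cfd. They made up 46.5% to 51.7% of the counts of the 10 genes at day 0 and 88.2% to 95.0% at day 5. Without Fabp4 the sum was 43.9 to 65.8 CPM at day 0 and 0.866 to 2.52 CPM at day 5. Day 5 replicate 3 had no count for 4 of the genes (Ucp1, Cidea, Plin1 and Plin5), and each of the other day 5 libraries had none for 2.

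Of 28 further genes of brown and beige fat, 26 had enough counts to be tested, and 10 were lower and 3 higher at day 5. Of all genes tested 5.15% were called lower and 6.13% higher when a call needed an adjusted p below 0.05 together with at least a doubling or its inverse (log2 of 1). The median log2 difference of the 26 was -0.49, against 0.02 over all genes tested. The genes called lower include enzymes and channels of fuel use. Cpt1b, the muscle and brown fat form of the enzyme that admits fatty acids to mitochondria, had 379, 232 and 350 counts at day 0 and 0, 5 and 12 at day 5. It fell 57.3-fold, from 4.49 ± 1.37 to 0.0783 ± 0.0828 CPM (log2 -5.81 ± 0.62 SE, edgeR adjusted p = 4.36e-05). Slc27a2, a fatty acid transporter and acyl-CoA synthetase, fell 67.0-fold (adjusted p = 0.000302). Kcnk3, a potassium channel, fell 19.2-fold (adjusted p = 0.00118).

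Otop1 and Cox8b were seen at day 0 only. Otop1, a proton channel gene enriched in brown fat, had 41, 30 and 46 counts at day 0, and fell at least 39.3-fold (edgeR adjusted p = 0.000586). Cox8b, a cytochrome c oxidase subunit of brown fat and muscle, had 23, 33 and 34 counts at day 0 and fell at least 29.9-fold (adjusted p = 0.00134). Both had no count in any day 5 library. Pdk4, a kinase that shifts cells from glucose to fat use, fell 2.14-fold from a much higher level, a mean of 142 CPM (adjusted p = 2.17e-06), and Slc36a2, an amino acid transporter, fell 2.36-fold (adjusted p = 0.00967).

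Other calls in this list depended on single libraries. Ppargc1a, a coactivator of mitochondrial genes, had 24, 21 and 18 counts at day 0 and 0, 0 and 4 at day 5 (edgeR adjusted p = 0.0433), and it lost its call without any 1 of the 5 libraries other than day 5 replicate 3 (adjusted p 0.0742 to 0.122). Ucp3, a relative of Ucp1, had an adjusted p of 0.0335, and 0.0591 to 0.0883 without any day 0 library or day 5 replicate 1. Adrb3, the adrenergic receptor of fat cells, had an adjusted p of 0.0225, and 0.0531 to 0.0742 without day 0 replicate 2 or 3 or day 5 replicate 1 or 2. Cox7a1, a cytochrome c oxidase subunit, was higher at day 5 (adjusted p = 0.0447), a call lost without any 1 library but day 0 replicate 1 (adjusted p 0.0716 to 0.150).

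Some genes of the same list went the other way or were not called. P2rx5, an ATP-gated ion channel used as a brown fat surface marker, rose 5.08-fold from 1.65 ± 0.368 to 8.37 ± 1.15 CPM (edgeR adjusted p = 8.81e-06). Tmem26, a beige fat surface marker, rose 3.69-fold from 5.29 ± 0.327 to 19.5 ± 2.57 CPM (adjusted p = 1.61e-06). Among the regulators, named here after their values were seen, Prdm16, a transcription factor that specifies brown fat, had 9.46 ± 0.914 CPM at day 0 and 6.60 ± 0.201 at day 5 (log2 -0.52 ± 0.13, adjusted p = 0.00891), under the size threshold. Ebf2, an earlier brown fat factor, had a log2 difference of -0.47 ± 0.29 (adjusted p = 0.257). Dio2, the enzyme that activates thyroid hormone in brown fat, had 157, 60 and 155 counts at day 0 and 90, 60 and 27 at day 5, and its days overlapped (adjusted p = 0.117).

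**Figure D2:**
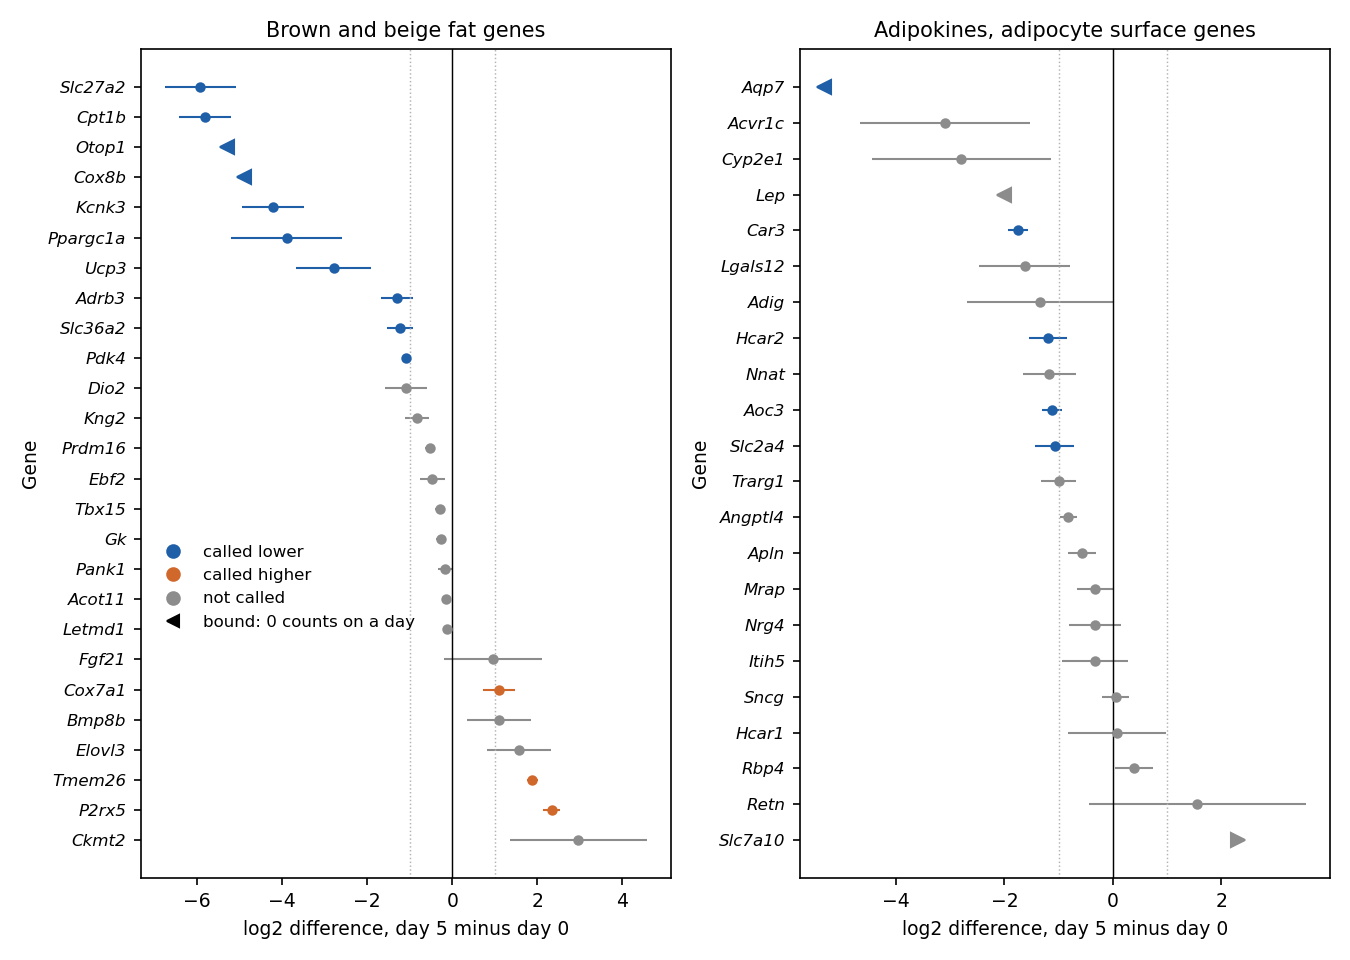
Log2 difference (day 5 minus day 0) with its standard error for the tested brown and beige fat genes (left) and adipokine and adipocyte surface genes (right), with triangles for genes with no count on a day, drawn at the bound from a floor of 3 counts. On the left 10 genes are called lower and 3 higher, on the right 5 lower and none higher.

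Of 22 adipokine and adipocyte surface genes outside the 10 members, 5 were called lower and 0 higher. Over all genes tested these shares were 5.15% and 6.13%. The median log2 difference of the 22 was -1.04. Aqp7, the channel by which glycerol leaves fat cells, had 46, 42 and 29 counts at day 0 and none at day 5, and fell at least 40.2-fold (edgeR adjusted p = 0.000673). Car3, a carbonic anhydrase abundant in fat cells, fell 3.36-fold from 13.8 ± 1.70 to 4.09 ± 1.05 CPM (adjusted p = 4.58e-05). Aoc3, a cell surface amine oxidase, fell 2.18-fold (adjusted p = 0.00074). The calls of Hcar2, a receptor for hydroxybutyrate and niacin, and of Slc2a4, the insulin-regulated glucose transporter, were lost when single libraries were left out. Hcar2 had an adjusted p of 0.0228, and 0.0654 to 0.0793 without day 0 replicate 1 or 3 or day 5 replicate 1 or 2. Slc2a4 had an adjusted p of 0.0446, and 0.0563 to 0.137 without any 1 of the 6 libraries. The hormone leptin, encoded by Lep, had 4 counts in each day 0 library and none at day 5, and Retn, encoding resistin, had 6, 0 and 0 counts at day 0 and 0, 17 and 3 at day 5. Both were chosen after their values were seen.

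Genes that take up fatty acids and build triglyceride changed in both directions. Of 14 tested, 4 were called lower and 2 higher, against 5.15% and 6.13% of all genes tested. The median log2 difference of the 14 was -0.26. Gpd1, which makes glycerol phosphate for triglyceride, fell 6.92-fold from 17.9 ± 0.945 to 2.58 ± 0.323 CPM (edgeR adjusted p = 1.44e-07). Cd36, a fatty acid transporter that macrophages also carry in large amounts, fell 4.60-fold from 570 ± 58.0 to 124 ± 23.8 CPM (adjusted p = 9.96e-07). Acsl1, which activates fatty acids with coenzyme A, rose 2.12-fold to 126 ± 0.485 CPM (adjusted p = 2.11e-06). Dgat2, which joins the last fatty acid to triglyceride, fell 2.51-fold and was chosen after its value was seen (adjusted p = 0.000407). Gpihbp1, which anchors lipoprotein lipase to capillaries, was called lower (adjusted p = 0.0245), but its adjusted p was 0.0517 to 0.111 without day 0 replicate 1 or day 5 replicate 2 or 3. Gpat3, an acyltransferase, was called higher at a log2 of 1.00, and was at 0.85 to 0.93 without day 0 replicate 2 or day 5 replicate 1 or 2.

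Of 17 other lipid droplet and lipolysis genes, 2 were called lower and 1 higher, against 5.15% and 6.13% of all genes tested. The median log2 difference of the 17 was -0.46. Mgll, which releases the last fatty acid in lipolysis, fell 2.37-fold (edgeR adjusted p = 0.00019). Plin4, a perilipin, fell 2.36-fold from 7.05 ± 0.340 to 2.98 ± 0.288 CPM (adjusted p = 0.000105). Cav1, the membrane protein of caveolae, rose 2.53-fold to 377 ± 20.8 CPM (adjusted p = 1.95e-07). The lipase Pnpla2, the enzyme that starts lipolysis and named after its value was seen, had 74.7 ± 3.23 and 79.3 ± 2.91 CPM (adjusted p = 0.395).

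Of 14 lipogenesis genes, 2 were called lower and 0 higher, against 5.15% and 6.13% of all genes tested. The median log2 difference of the 14 was -0.13. Acacb, the acetyl-CoA carboxylase that restrains fatty acid oxidation, fell 2.49-fold (edgeR adjusted p = 0.000768). Mlxipl, which encodes a glucose-responsive factor of lipogenic genes, fell 4.17-fold (adjusted p = 0.0105), but had an adjusted p of 0.0551 without day 0 replicate 1. Fasn, the fatty acid synthase, had 266 ± 37.5 and 231 ± 21.9 CPM and was not called (adjusted p = 0.18). It was chosen after its value was seen.

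Of 13 adipogenic transcription factors, 2 were called lower and 0 higher, against 5.15% and 6.13% of all genes tested. The median log2 difference of the 13 was -0.48. Cebpa, which encodes a factor of both fat and myeloid cells, fell 3.58-fold from 119 ± 11.4 to 33.2 ± 0.494 CPM (edgeR adjusted p = 1.01e-07). Rxra, the partner receptor of PPAR gamma, fell 2.48-fold from 187 ± 5.91 to 75.4 ± 6.18 CPM (adjusted p = 4.99e-07). Pparg, the nuclear receptor that directs fat cell formation, had 16.3 ± 0.913 CPM at day 0 and 11.7 ± 1.52 at day 5 (log2 -0.48 ± 0.12, adjusted p = 0.00966), under the size threshold, and was named after its value was seen. In the annotation deposited with the table, 6 of the 10 members carry the term PPAR signaling pathway. The other 61 tested genes with that term had a median log2 difference of -0.04.

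Each fat cell form was also set against its relatives. Of 15 paralogs of the members, 3 were called lower (Ucp3, Plin4 and Fabp3) and 1 higher, against 5.15% and 6.13% of all genes tested. The median log2 difference of the 15 was -0.36. Mid1ip1, a relative of Thrsp, rose 3.56-fold to 205 ± 14.4 CPM (edgeR adjusted p = 4.39e-08). Fabp3, the heart form of the fatty acid binding proteins, fell 3.71-fold (adjusted p = 3.61e-05). Ucp2, a relative of Ucp1 found in many cell types, had 573 ± 67.2 and 687 ± 64.2 CPM (adjusted p = 0.0624). The common perilipins Plin2 (log2 -0.73 ± 0.09) and Plin3 (log2 0.95 ± 0.07) were under the size threshold, as were Fabp5 (log2 -0.65 ± 0.09) and Pck2, the mitochondrial relative of Pck1 (log2 -0.13 ± 0.13).

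Within their families, per length, the members other than Adipoq and Cfd, which were not set in a family, ranged from minor to main forms. Ucp1 made up 9.60 ± 2.25% of the summed FPKM of Ucp1, Ucp2 and Ucp3 at day 0 and none at day 5. Pck1 made up 29.0 ± 6.20% of Pck1 and Pck2 at day 0 and 0.568 ± 0.470% at day 5. Ucp2 and Pck2 were thus the larger forms on both days. Thrsp went from 7.33 ± 1.89% to 0.0459 ± 0.00979% of Thrsp and Mid1ip1. Fabp4 went from 11.6 ± 0.895% to 3.39 ± 0.332% of the sum of Fabp3, Fabp4, Fabp5 and Fabp7, a selection of its family. The shares of Fabp4, Pck1, Thrsp and Plin1 rest on the long lengths behind their FPKM, described above. Plin1 and Plin5 together were 0.946 ± 0.192% of the perilipins at day 0. Cidea and Cidec were 99.1 ± 0.534% of the Cide genes at day 0 and 66.6 ± 20.4% at day 5, when all Cide genes were low.

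**Figure D3:**
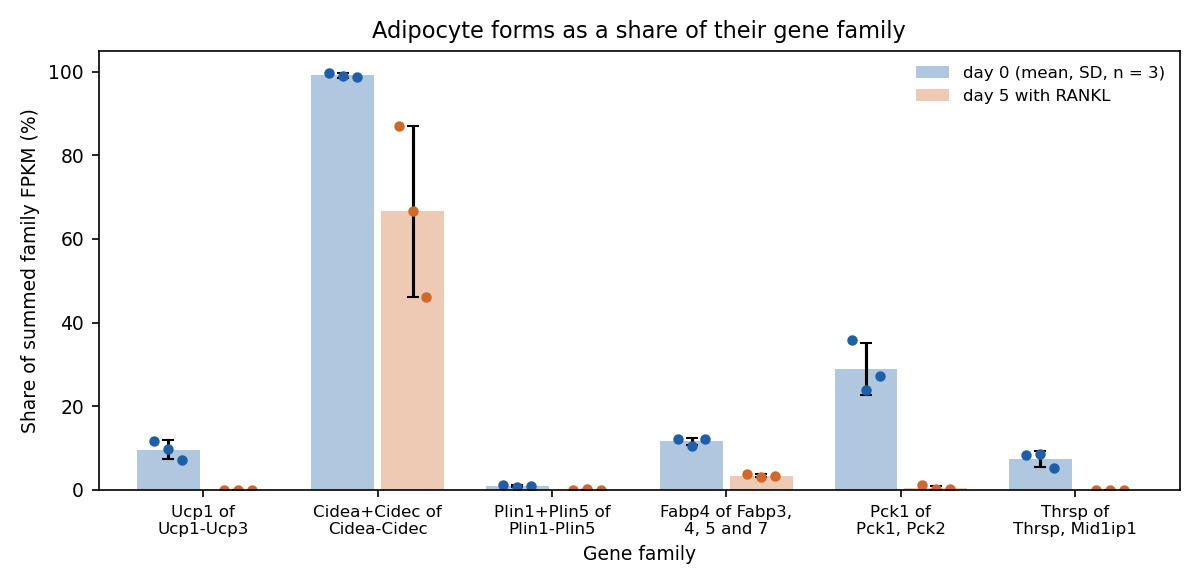
Share of the summed FPKM of each gene family that is taken by the members in each library (points), with the mean and SD of each day (bars, n = 3). The share is lower at day 5 in all 6 families, with Cidea and Cidec still above 40% of a small sum.

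Of 20 tested genes that flank the 10 members, 2 were called lower and 2 higher, against 5.15% and 6.13% of all genes tested. The median log2 difference of the 20 was -0.19. The lower ones were Plin4, 1798 bases from Plin5, and Zbp1, a sensor of nucleic acids 47339 bases from Pck1, which fell from 8.31 ± 0.926 to 1.52 ± 0.299 CPM (edgeR adjusted p = 4.85e-06). Both neighbours of Cidea were higher. Tubb6, a tubulin gene, rose from 214 ± 3.20 to 618 ± 28.8 CPM (adjusted p = 6.13e-08), and Impa2, an inositol phosphatase gene, had a log2 difference of 1.04, which was 0.98 without day 0 replicate 3. The members lie on 9 chromosomes, with Plin1 and Thrsp both on chromosome 7.

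Markers of other cells that fat tissue or marrow could bring along moved between the days in several directions. Of 10 fat cell precursor markers 1 was called lower and 2 higher (median log2 -0.03), against 5.15% and 6.13% of all genes tested. Dlk1, a surface protein of preadipocytes, rose from 0.249 ± 0.0548 to 7.67 ± 0.313 CPM (edgeR adjusted p = 8.86e-08), and Clec11a fell 2.24-fold (adjusted p = 0.00011). Of 12 marrow stromal markers 1 was called lower and 3 higher (median log2 -0.43). Cxcl12, the chemokine of marrow stroma, fell 2.68-fold (adjusted p = 8.98e-06), and Col1a1 was high on both days at 7416 ± 1764 and 4569 ± 331 CPM. Among the stromal markers called higher, Thy1 rose 2.92-fold (adjusted p = 7.49e-06). Lum rose 2.90-fold from a low level of 0.334 ± 0.0347 CPM (adjusted p = 0.00949).

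Over all genes tested 5.15% were called lower and 6.13% higher. Of 9 endothelial markers tested 4 were called lower and 1 higher. Tek fell 3.77-fold and Pecam1 2.43-fold (edgeR adjusted p = 0.00698 and 0.000858). Vwf rose from 4.58 ± 1.60 to 21.2 ± 1.60 CPM (adjusted p = 3.29e-05). The endothelial list summed to 25.7 ± 1.78 CPM at day 0 and 32.1 ± 1.57 at day 5, although its median log2 difference was -0.99. Of 5 erythroid markers 1 was called lower and 0 higher. That erythroid gene, Hba-a2, had an adjusted p of 0.0337 by edgeR and of 0.0614 to 0.171 without any 1 library but day 0 replicate 1. Of 9 neutrophil markers 3 were called lower and 2 higher. Macrophage markers were lower as a group, with 7 of 9 called lower and 0 higher (median log2 -1.85). Adgre1, which encodes F4/80 and was chosen after its value was seen, fell 4.27-fold (adjusted p = 2.49e-08). Osteoclast markers rose, 8 of 8, with a median log2 difference of 5.93.

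Markers of skeletal muscle and of keratinocytes went opposite to the fat cell genes. Over all genes tested 6.13% were called higher and 5.15% lower. Of 17 muscle markers 11 were called higher and 0 lower, and of 12 keratinocyte markers 11 higher and 0 lower. Their median log2 differences were 4.02 and 7.16, the latter 6.36 with genes at 0 set to their bound. Summed over the list, the muscle markers had 23.7 to 28.8 CPM at day 0 and 52.6 to 109 CPM at day 5, and the keratinocyte markers 15.6 to 17.3 and 144 to 192 CPM. At day 0, Myh2 and Pvalb of the muscle list and Krt15, Krtdap and Dsg1a of the keratinocyte list had no count in any library. Ckm, a creatine kinase of muscle, had 0, 0 and 28 counts at day 0 and 179, 486 and 265 at day 5. Krt5, a keratin of basal keratinocytes, rose from 0.0760 ± 0.0881 to 20.2 ± 2.90 CPM (edgeR adjusted p = 3.03e-07). Ckm and Krt5 were chosen after their values were seen. The part of these cell types in the levels of the 10 genes was not tested.

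**Figure D4:**
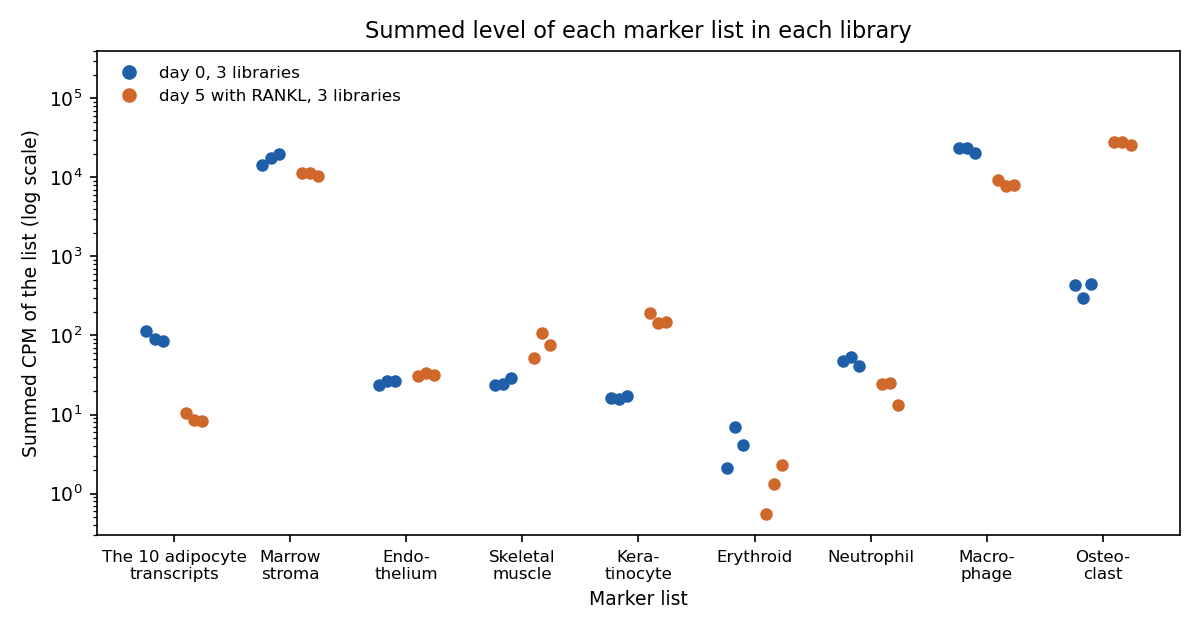
Summed CPM on a log scale of the 10 adipocyte transcripts and of each marker list in each library. The 10 transcripts and the macrophage, neutrophil and marrow stromal markers sum lower at day 5. The muscle, keratinocyte and osteoclast markers sum higher, and the days of the erythroid markers overlap. The endothelial markers also sum higher, although 4 of 9 tested were called lower and only Vwf higher.

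The genes whose pattern over the 6 libraries was most like the mean pattern of the 10 members were looked for among 16098 genes with at least 100 counts, by Pearson's r of log2(CPM + 0.5). The 10 most alike were H2-M3, Lrrc27, Acp2, Ces1d, Fpr1, Mex3b, Glrx, Tlr1, Ranbp3l and Fam120b, and none of them is in the lists above. The 6 points fall into 2 days, so a high r is common, and 192 genes had an r of at least 0.99. Leaving out 1 library kept 0 to 5 of the 10. Of these 10 genes only Ces1d and Ranbp3l, like Ucp1, had no count at day 5. Ces1d, a carboxylesterase that hydrolyses triglyceride in fat cells, had 351, 253 and 293 counts at day 0 and Ranbp3l had 99, 93 and 87. The others were still detected at day 5. Their falls differed in size, which r does not measure, from 1.18-fold for Fam120b to 6.34-fold for Fpr1. Acp2, Mex3b and Lrrc27 fell 1.46-fold, 1.76-fold and 1.92-fold. Fpr1, a receptor for formyl peptides on phagocytes, had 4.59 ± 0.329 CPM at day 5. The 10 genes were picked by their pattern over the same days, so their falls are given without a test.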

How the data were processed

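Poly(A) RNA of 6 libraries was sequenced as read pairs after a strand-marking dUTP preparation, per the labels' protocols. Tools named in the submitters' processing notes are edgeR, fastp, HISAT2 and StringTie, with GRCh38 as the build. Versions and the use of strand in counting are not given in the sources used here. The gene IDs are mouse, and the coordinates match build GRCm38 (GENCODE M21), except that Plin1 has another start and end there. Per the file headers, the authors deposited raw counts per gene and FPKM values, which scale the counts by gene length and depth. In each library a count of 4 was commoner than a count of 3 or of 2 (804 to 885 genes against 332 to 395 and 553 to 651), so counts may hold both mates of a pair, and halved counts were tried as an alternative.

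Genes with at least 10 counts over the 6 libraries were tested, 21703 in all, with edgeR 4.0.16 (R 4.3.3), TMM scaling and the quasi-likelihood test on day alone. P-values were adjusted by Benjamini-Hochberg over all of them. A call needed an adjusted p under 0.05 and a log2 size of 1 or more. A floor of 3 counts over a day, which covers counting error only, gives the bounds for genes with no count. All these bounds would be smaller if the counts hold both mates of a pair. No 2 libraries of a day differed as little as sampling noise (smallest chi-square per degree of freedom 14.5). edgeR's common coefficient of biological variation came to 0.203.

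The members and the 16 lists were chosen with earlier results of these data known. Named genes are the members, up to 2 called genes per list and direction with the largest log2 difference, the gene of each list with the highest FPKM, paralogs with an FPKM of at least 1, the 10 genes most alike, Csf1r and Acp5. Every other gene printed with its own values, such as the further called genes of the brown fat and adipokine lists and the called neighbours, was chosen after its values were seen. Lists are given as counts and medians without a set test. Alternatives were other filters, scalings and thresholds, limma 3.58.1 on log2(FPKM + 1) and log2(FPKM + 0.1), DESeq2 1.42.0, each library left out, and a replicate block. Promoter windows come from RefSeq, and 10 windows cover 8 members, without Cidea and Fabp4. Chromosome 18, where Cidea lies, was left out for the members and kept for the shares of all windows. Figures were drawn with matplotlib 3.10.9.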

Additional observations from a re-analysis of the deposited data

How the results depend on the processing

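Under every scaling, filter and test tried, each of the 10 members that could be fitted stayed lower at day 5. Their median log2 difference was -4.75, -1.49 with limma on log2(FPKM + 1), -3.15 with limma on log2(FPKM + 0.1), where the pseudocount itself shrinks low values, and -5.39 to -4.44 when 1 library was left out. Limma on log2(FPKM + 1) called 439 genes lower and 542 higher, against 1117 and 1331, and 34 of 69 named genes lost their call. There the brown fat list had 5 genes called instead of 13, the adipokine list 1 instead of 5, lipid droplets 1 instead of 3, fatty acid uptake 2 instead of 6, lipogenesis 0 instead of 2, paralogs 2 instead of 4, precursors 1 instead of 3, stroma 2 instead of 4, muscle 6 instead of 11, keratinocyte 7 instead of 11 and endothelium 0 instead of 5. With the pseudocount of 0.1, adipokines had 3, lipogenesis 1 and endothelium 2. The filter of 1 FPKM in 3 libraries tests fewer genes and gave 695 higher, with 4 called in the brown fat list, 2 adipokines, 0 lipogenesis, 2 stroma, 3 muscle, 7 keratinocyte and 2 endothelial genes. Without the size threshold 3485 genes were lower and 3806 higher, with 10 called among lipid droplet genes, 11 in fatty acid uptake, 8 in lipogenesis, 6 transcription factors, 9 paralogs, 7 precursor and 10 stromal markers. Leaving out 1 library gave 974 to 1108 genes lower and 1175 to 1281 higher, 9 to 12 called in the brown fat list, 3 to 6 adipokines (3 without day 0 replicate 1 or day 5 replicate 1), 1 to 2 in lipogenesis (1 without day 0 replicate 1), 0 to 1 erythroid genes (0 without day 0 replicate 2 or 3 or day 5 replicate 1 or 2) and 0 to 5 of the 10 genes most alike. That list kept 6 of 10 with library totals. The erythroid list, with Hba-a2 called, had 2 genes called with filterByExpr, DESeq2, the replicate block or halved counts and 0 with no filter, and Hba-a2 was not called under the block (adjusted p = 0.0864). Halved counts were chosen after seeing the data. Fabp7, a brain form of Fabp4, had a log2 difference of 0.05, and -0.15 to 0.29 when 1 library was left out, below 0 without day 0 replicate 2 or day 5 replicate 1 or 3. C1qtnf12, a relative of Adipoq, had one of -0.0032, and 0.023 with library totals, 0.025 and 0.027 with limma and -0.068 to 0.060 when 1 library was left out, above 0 without replicate 3 of either day. The cause of these moves was not tested beyond what is said here.

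No pairing of the libraries by replicate number was seen, though 3 libraries per day cannot exclude one. Deviations from the day's mean of same-numbered libraries correlated at 0.000284, 0.0292 and 0.00119, and only replicate 2 of day 0 correlated best with its own number. A fit with a replicate block called 1070 genes lower and 1201 higher, 10 in the brown fat list, 5 adipokines and 3 paralogs. The depth of 64616609 to 82721513 counts leaves members with under 30 counts at day 5 resting on a few reads, so differences among their day 5 levels are not resolved.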

Other observations

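Besides Ucp1, 13 genes had at least 100 counts over the day 0 libraries and none at day 5. They include Ces1d, Otop1, Aqp7 and Ranbp3l, described above, and Timp4, which encodes an inhibitor of matrix metalloproteinases, with 43, 41 and 37 counts at day 0. Matn1, a cartilage matrix gene, had 28, 59 and 26 counts. In Rps18-ps4, by contrast, all 188 counts came from day 0 replicate 3, and Guca1a had 0, 260 and 214 counts. Gm20716 was the most abundant of these genes, with 2833, 2943 and 4969 counts. These genes were chosen after their values were seen.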
